A study of Mus musculus with 2 samples.

Results

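Mir191 and Mir425 are microRNA genes that lie next to each other on mouse chromosome 9, on the plus strand, in a region that RefSeq assigns to the gene Dalrd3. They are represented here by 2 of the 1973 genes counted in newborn mouse heart. Mir425 (ENSMUSG00000065579.1) has a row of its own and was read from the counts on its strand. Mir191 has no row, and its place was read from the counts on the strand opposite to Gm24083 (ENSMUSG00000092915.1), a microRNA gene annotated across the same bases on the minus strand. The genes were chosen by these identifiers and by their strand counts, with the counts in these libraries already known. Their levels, strand shares and the ratio of 1 gene to the other within a heart are therefore descriptions, with no test, and tests were made only between the hearts.

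The samples were heart tissue of B6NCrl mice (a C57BL/6N substrain) taken on postnatal day 0. The labels name no allele, treatment or agent. Replicate 2 was the heart of pup 3 and replicate 1 the heart of pup 1, with 1 small RNA library each. The labels give the same donor identifier for both and list sex as not collected. Total RNA was used, and the library size range was below 30 nt, so a read is about as long as a whole mature microRNA, and counts of different microRNAs were set side by side without dividing by length. There is 1 group and no contrast of conditions.

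A microRNA gene is transcribed as part of a longer RNA that folds into a hairpin. The hairpin is cut to a duplex, and 1 or both arms, named 5p and 3p, are kept as mature microRNAs that pair with messenger RNAs mainly through their seed, bases 2 to 8. Mir191 and Mir425 are described as co-transcribed in mammals. miR-191 is expressed in many tissues and, with miR-425, is often used as a reference in quantitative PCR, because its level varies little between samples. In human, miR-425-5p has been reported to repress NPPA, the gene of atrial natriuretic peptide, a hormone of heart muscle cells.

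The mature products of both genes are shown because their seeds decide how the microRNAs can be grouped. The letters are from RefSeq on GRCm38.p6, the build called mm10 in the files, and capitals mark the seed.
mmu-miR-191-5p: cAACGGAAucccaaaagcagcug
mmu-miR-191-3p: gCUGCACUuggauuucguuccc
mmu-miR-425-5p: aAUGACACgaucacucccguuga
mmu-miR-425-3p: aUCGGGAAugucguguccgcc
mmu-miR-489-3p: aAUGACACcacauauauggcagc

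The 4 products of the pair have 4 different seeds. Among the mature mouse microRNAs in the RefSeq table, the seeds of miR-191-5p, miR-191-3p and miR-425-3p each occurred in 1 sequence. The seed of miR-425-5p occurred in 1 other, miR-489-3p, whose gene Mir489 (ENSMUSG00000070107.1) is on chromosome 6. Mir489 had 0 counts on either strand in both hearts. That allows a level of up to 0.365 CPM (counts scaled to a gene total of 1000000) in replicate 2 and 0.437 CPM in replicate 1, the level of 3 counts. Mir425 was therefore the gene of this seed that was detected at this depth.

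The hairpins are shown because the counts cover each of them as a whole. Capitals mark the mature 5p and 3p arms, and the counts do not say which arm a read came from.
Mir191 hairpin: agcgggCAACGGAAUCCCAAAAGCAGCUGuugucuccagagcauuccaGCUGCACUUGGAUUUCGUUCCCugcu
Mir425 hairpin: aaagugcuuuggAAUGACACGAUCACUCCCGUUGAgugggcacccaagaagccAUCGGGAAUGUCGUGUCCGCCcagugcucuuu

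On mm10, the Mir191 hairpin of 74 nt lies at chr9:108568319-108568392 and the Mir425 hairpin of 85 nt at chr9:108568777-108568861, both on the plus strand, with 384 bases between them. They were close in base composition, with a GC content of 54.1% each. The predicted folding energy (RNAfold) was -0.473 kcal/mol per nt for Mir191 and -0.373 kcal/mol per nt for Mir425, on either side of the median of -0.406 over 1005 mouse hairpins in the table. No 20 nt stretch of either gene, or of Gm24083, occurred in another annotated microRNA gene. Reads that matched several places, which were listed apart from the genes, made up 34.6% of reads in replicate 2 and 35.9% in replicate 1. Whether any of them came from this pair was not tested.

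Gm24083 spans 120 bases, chr9:108568295-108568414, on the minus strand. It reaches 24 bases beyond the Mir191 hairpin on 1 side and 22 on the other. Its transcript holds the Mir191 hairpin in reverse complement, and does not hold it in the direction in which Gm24083 is annotated. Counts opposite to Gm24083 thus lie on the strand of Mir191, but reads from those flanking bases would be counted with them.

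The name of the host gene depends on the annotation. RefSeq draws Dalrd3, whose human protein takes part in the modification of transfer RNA, from 108567484 to 108572773, across both microRNAs. GENCODE M21 starts Dalrd3 at 108569886, which is 1025 bases past the end of Mir425, and places both microRNAs in or beside a separate long noncoding gene, 4833445I07Rik, from 108567533 to 108569174. In its 1-exon transcript both hairpins are exonic. In its 2-exon transcript Mir191 is intronic, and Mir425 starts 3 bases after the last exon ends. The longer RNA itself was not measured, since the libraries hold small RNA and the tables list microRNA genes.

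**Figure D1:**
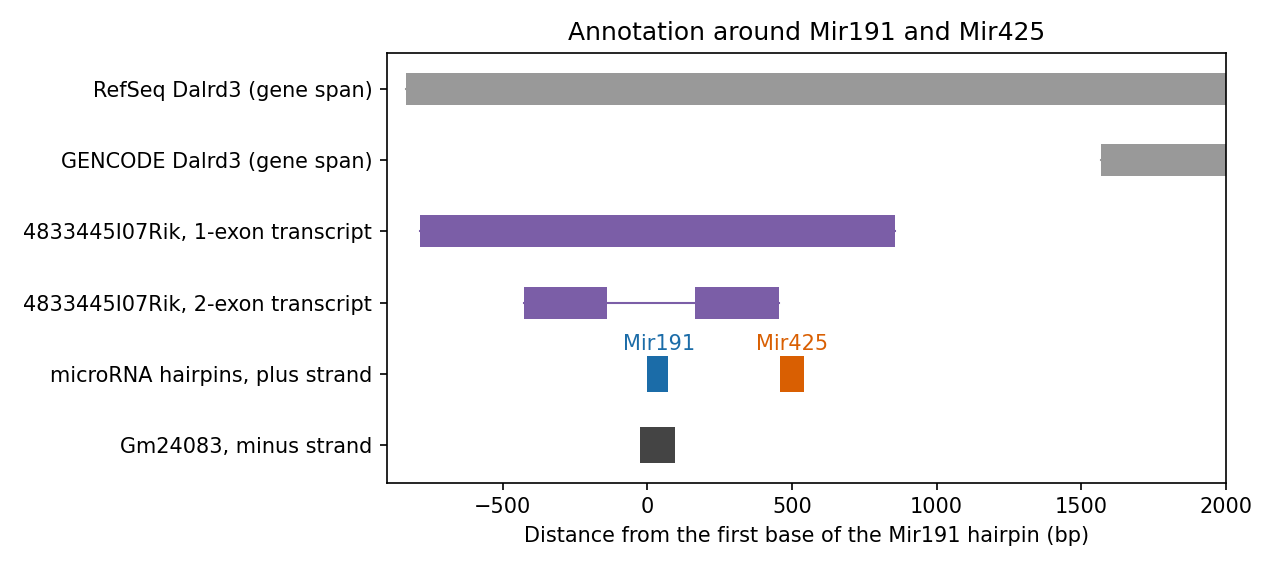
Annotated genes around Mir191 and Mir425 by distance in bp from the first base of the Mir191 hairpin, with thick bars for gene spans, exons or hairpins and a thin line for the intron. The Mir191 hairpin lies inside the minus-strand gene Gm24083, Mir425 begins after a gap of 384 bases, and the GENCODE span of Dalrd3 starts downstream of both; spans that reach past 2000 bp are not drawn to their end.

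The strand counts were one-sided at both genes. Mir425 had 13415 sense counts in replicate 2 and 8689 in replicate 1, with 0 counts on the opposite strand in both. Gm24083 had 0 sense counts in both hearts and 18557 opposite-strand counts in replicate 2 and 13237 in replicate 1. Every count at these 2 genes was therefore on the plus strand, the strand of Mir191 and Mir425.

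Totals of all gene counts on both strands were 8224336 in replicate 2 and 6864316 in replicate 1, and served as the denominator for both genes. The labelled tissue was checked by the cardiac microRNAs Mir208a, Mir208b, Mir499, Mir1a-1 and Mir133a-1, which were all detected. As a list they took 11.6% of counts in replicate 2 and 11.4% in replicate 1. Most of that was Mir208b, at 100340 CPM in replicate 2 and 94454 CPM in replicate 1. Mir1a-1 had only 7.17 CPM in replicate 2 and 9.32 CPM in replicate 1, and Mir133a-1 8.88 and 6.41 CPM. The last 2 have sequence repeated in another microRNA gene, so their counts are uncertain. Markers of endothelium (Mir126a, Mir139) took 11.6% in replicate 2 and 13.6% in replicate 1, of smooth muscle (Mir143, Mir145a) 8.14% in replicate 2 and 8.73% in replicate 1, and of red cells (Mir451a, Mir144, Mir486) 0.128% in replicate 2 and 0.103% in replicate 1. Leukocyte markers (Mir223, Mir155, Mir150) took 0.0552% in replicate 2 and 0.0515% in replicate 1. Mir206 of skeletal muscle took 0.00961% in replicate 2 and 0.00661% in replicate 1, and Mir122 of liver 0.00413% in replicate 2 and 0.00332% in replicate 1. No marker was at 0. In tissue of several cell types, more cells of a type and more RNA per cell cannot be told apart. The part of these cell types in the levels below was not tested.

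Gm24083, on the strand of Mir191, had 2256 CPM in replicate 2 (95% interval 2224 to 2289, exact Clopper-Pearson) and 1928 CPM in replicate 1 (1896 to 1961), a mean of 2092 ± 232 CPM (SD, n = 2). Mir425 had 1631 CPM in replicate 2 (1604 to 1659) and 1266 CPM in replicate 1 (1239 to 1293), a mean of 1448 ± 258 CPM. In each heart the strand of Mir191 held more counts than Mir425, and both were higher in replicate 2. The lower of the Gm24083 values, 1928 CPM, was above the higher of the Mir425 values, 1631 CPM. Intervals and the limits set by 0 counts cover counting error only, since reads without molecular identifiers are not independent molecules.

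**Figure D2:**
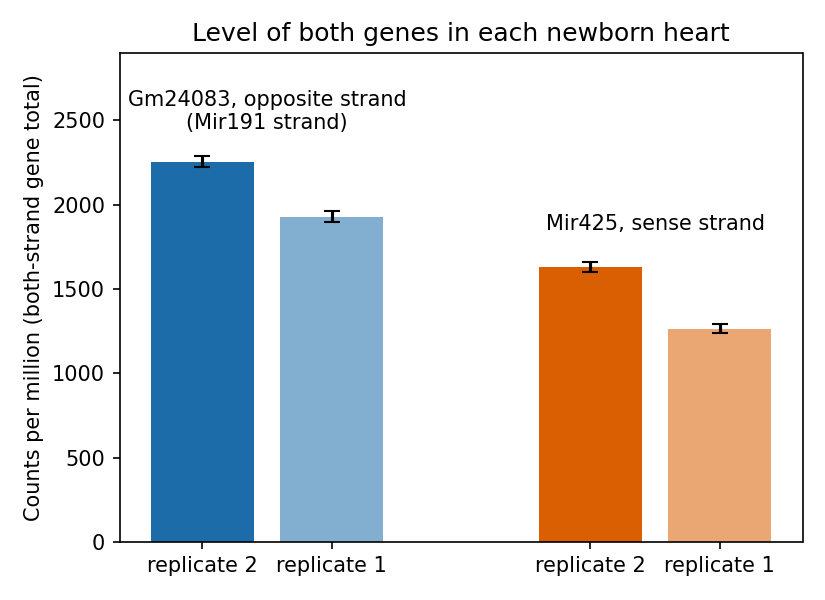
CPM of the Gm24083 opposite strand, where Mir191 lies, and of Mir425 in the heart of each pup; bars are single libraries and error bars are exact Clopper-Pearson 95% intervals of the count. The Gm24083 opposite strand stands at 2256 CPM in replicate 2 and 1928 CPM in replicate 1, and Mir425 at 1631 CPM in replicate 2 and 1266 CPM in replicate 1.

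Taking the sense count and the opposite-strand count of each gene as separate features, 725 features had counts in replicate 2 and 670 in replicate 1. By mean CPM the strand of Mir191 ranked 46 and Mir425 ranked 63. The strand of Mir191 had rank 45 in replicate 2 and 49 in replicate 1, and Mir425 had rank 57 in replicate 2 and 64 in replicate 1. Together they took 3887 CPM in replicate 2 and 3194 CPM in replicate 1, a mean of 3541 ± 490 CPM. That is less than Mir499, the least abundant of the myosin intron microRNAs, at 4497 CPM in replicate 2 and 4741 CPM in replicate 1.

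The features nearest to each gene in log2(CPM + 1) over the 2 libraries were found by Euclidean distance. Nearest to the strand of Mir191 were Mir744 at 2011 ± 155 CPM (distance 0.0919), Mirlet7f-2 at 2210 ± 276 CPM (0.112) and Mir298 at 2183 ± 370 CPM (0.116). Nearest to Mir425 were Mir301 at 1460 ± 105 CPM (0.158), Mir16-1 at 1575 ± 143 CPM (0.223) and Mir342 at 1323 ± 351 CPM (0.243). Mirlet7f-2 and Mir16-1 have sequence repeated in another microRNA gene, so their counts are uncertain. With 2 libraries this likeness is one of level and of the ratio between the hearts, and each of these means lay within 1 SD of the gene it is set beside.

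Gm24083 was not alone in being counted on its opposite strand. In all, 12 genes had 100 or more opposite-strand counts in each library, and at each of the 12 another microRNA gene is annotated in GENCODE M21 on the strand that held those counts. None of those 12 annotated genes has a row in the count tables. Gm24083 had rank 3, after Gm25301 at 62117 ± 406 CPM, which lies across Mir378a, a microRNA of the energy metabolism gene Ppargc1b, and Gm25927 at 3761 ± 171 CPM, across Mirlet7e. Next below it was Gm25252 at 789 ± 62.5 CPM, across Mir376a of the imprinted Dlk1-Dio3 region. In 10 of the 12 genes over 99% of counts were on the opposite strand in both libraries, and in 6, Gm24083 among them, the sense count was 0 in both. Gm24083 held 3.12% of all opposite-strand counts in replicate 2 and 2.70% in replicate 1, and Gm25301 held 86.4% in replicate 2 and 86.5% in replicate 1. Gm25301 has sequence repeated in another microRNA gene, so its counts are uncertain.

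**Figure D3:**
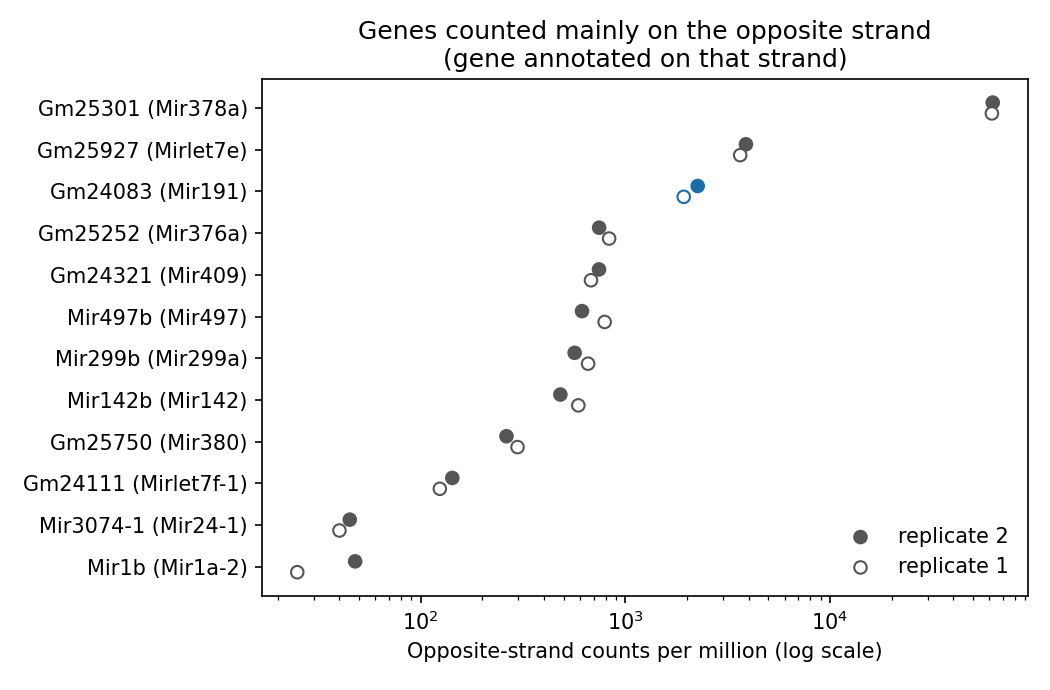
Opposite-strand CPM, on a log scale, of the 12 genes with 100 or more such counts in each library, with the gene annotated on that strand in brackets; filled points are replicate 2 and open points replicate 1. Gm24083, in blue, has rank 3, between Gm25927 at a mean of 3761 CPM and Gm25252 at 789 CPM.

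Both genes were higher in replicate 2 than in replicate 1 beyond counting error. For Mir425, at 1631 CPM in replicate 2 and 1266 CPM in replicate 1, the ratio was 1.29-fold, a log2 ratio of 0.37 with a counting SE of 0.0199 (exact binomial test given the library totals, 2-sided, adjusted p = 1.87e-75). For the strand of Mir191, at 2256 CPM in replicate 2 and 1928 CPM in replicate 1, it was 1.17-fold, a log2 ratio of 0.23 with a counting SE of 0.0164 (the same exact binomial test, adjusted p = 1.95e-42). P-values were adjusted by Benjamini-Hochberg over all 453 features whose counts in both libraries sum to 10 or more. Of these, 32.2% passed a threshold of 0.05, and 19.6% passed with the higher level in replicate 2. Calls were more frequent at high counts, where 69 of the 184 features with 1000 or more counts were called higher in replicate 2 and 53 in replicate 1. A call is thus common among these features, and the test compares the 2 libraries and not conditions. With 1 library per heart, differences between animals and between library preparations cannot be told apart.

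Neither call held when a spread between hearts was assumed. In the edgeR exact test with the biological coefficient of variation set to 0.1, 0.662% of the 453 features passed, which is 3 features, Mir181b-2, Mir362 and the opposite strand of Mir1b, named after seeing their values. Mir181b-2 and Mir1b have sequence repeated in another microRNA gene, so their counts are uncertain. Mir425 had an unadjusted p of 0.0752 in that edgeR test (adjusted p = 0.782) and the strand of Mir191 an unadjusted p of 0.269 (adjusted p = 1).

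The ratio of Mir425 was large for its level. Among 52 other features with a mean CPM from 724 to 2897, within 2-fold of Mir425, the log2 ratio of replicate 2 over replicate 1 ran from -0.38 to 0.55 with a median of 0.00, and 3 had a larger ratio. Of those 52, 20 were called higher in replicate 2 and 17 higher in replicate 1. Among 42 other features from 1046 to 4185 CPM, within 2-fold of the strand of Mir191, it ran from -0.24 to 0.55 with a median of 0.03, and 4 had a larger ratio. Of those 42, 19 were called higher in replicate 2 and 8 higher in replicate 1. Of the 184 features with 1000 or more counts, Mir425 had rank 16 by this ratio and the strand of Mir191 rank 35. Over all 453 features, which include many with few counts and wide ratios, 78 had a larger ratio than Mir425 and 121 a larger one than the strand of Mir191.

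Because miR-191 and miR-425 are in use as reference microRNAs, 20 other genes of microRNAs used in that way were set beside them. Of the 20, 19 were counted, and Mir24-1 was not among the genes counted. By the exact binomial test 12 of the 19 were higher in replicate 2, 1 was higher in replicate 1 and 6 did not pass. Over all 453 features, 89 were called higher in replicate 2 and 57 in replicate 1. Of the 184 features with 1000 or more counts, 69 were called higher in replicate 2 and 53 in replicate 1. The median log2 ratio of the 19 was 0.19, beside 0.02 for all 453 features, and the median of absolute values was 0.19, beside 0.21. The 3 most abundant were Mirlet7i, Mirlet7g and Mir93. Mirlet7i had 41770 CPM in replicate 2 and 39561 CPM in replicate 1, a log2 ratio of 0.08. Mirlet7g had 39892 CPM in replicate 2 and 38725 CPM in replicate 1, a log2 ratio of 0.04.

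Mir93, of the cluster in the replication gene Mcm7, had 3505 CPM in replicate 2 and 3057 CPM in replicate 1, a log2 ratio of 0.20. The 3 with the widest ratios were Mirlet7a-1 at 0.60, Mir103-2 at 0.55 and Mirlet7a-2 at 0.50, with mean levels of 113, 27.8 and 86.6 CPM, and all 3 have repeated sequence. Repeated sequence makes the counts of 10 of the 19 genes uncertain. Among the other 9 the log2 ratio ran from -0.08 to 0.28 with a median of 0.08. Mir425, at 0.37, lay above all 9, and the strand of Mir191, at 0.23, above 8 of the 9. The lists and levels were chosen with earlier results of these data known, and these counts are descriptions.

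**Figure D4:**
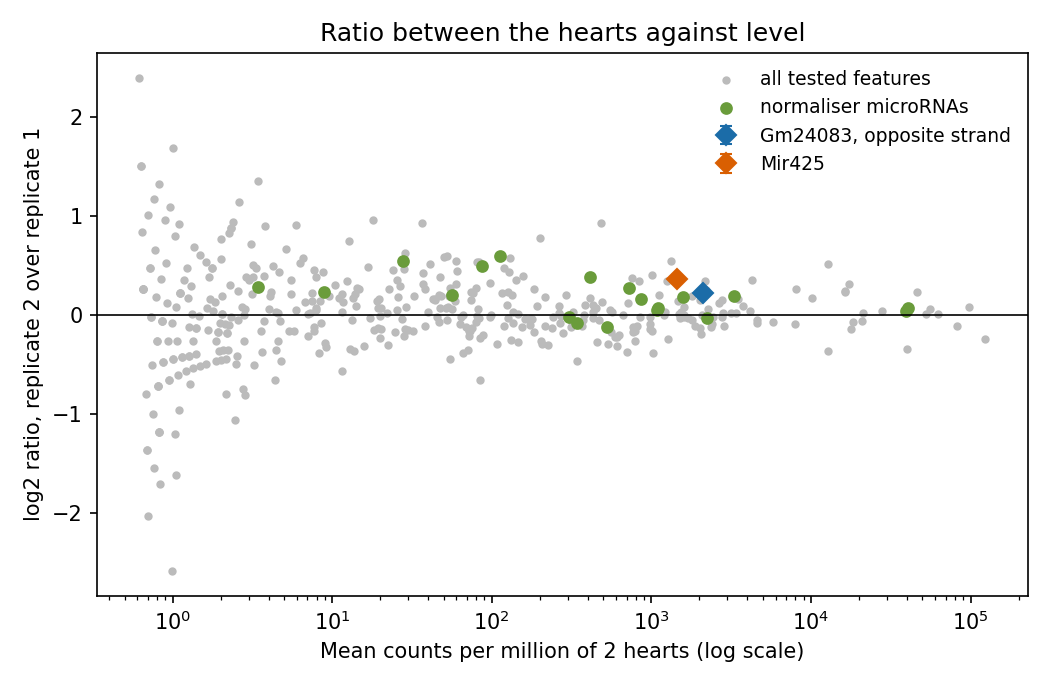
Log2 ratio of replicate 2 over replicate 1 against mean CPM (log scale) for the 453 features tested in grey, the 19 reference microRNAs in green, and both genes of the pair as diamonds with 95% counting intervals. Mir425 at 0.37 and the strand of Mir191 at 0.23 lie above the zero line, toward the upper edge of features of similar level.

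The pair also differed slightly in proportion between the hearts. The strand of Mir191 held 1.38 times the counts of Mir425 in replicate 2 (exact 95% interval 1.35 to 1.41) and 1.52 times in replicate 1 (1.48 to 1.57), a mean ratio of 1.45 ± 0.0991 (SD, n = 2). This ratio does not depend on the library totals. The odds ratio of replicate 2 over replicate 1 was 0.908, a log2 difference of -0.14, with the strand of Mir191 relatively lower in replicate 2 (Fisher's exact test, 2-sided, p = 6.59e-08). That test covers counting error between 2 libraries only.

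Other neighbouring microRNA genes give a scale for this ratio. Within 1 kb on the same strand, 94 pairs of genes had 10 or more sense counts in both libraries, from 108 genes, so that many pairs share a gene. Only sense counts were used for them, so pairs with a gene read on the opposite strand, as Mir191 is here, were left out. The ratio of the upstream to the downstream gene had a median size of 4.50-fold, a log2 value of 2.17, and 15 of the 94 pairs were more nearly equal than the pair of Mir191 and Mir425, at a log2 value of 0.54. Among the 52 pairs without repeated sequence the median was 4.09-fold, and 10 were more nearly equal. By the size of the mean log2 ratio of the 2 hearts, the most equal of these were Mir20b over Mir363, Mir540 over Mir665 and Mir183 over Mir96. Each of the 3 had opposite signs in the hearts, so that part of the mean cancels. Mir20b over Mir363 was -0.20 in replicate 2 and 0.20 in replicate 1, on 33 to 38 counts a gene. Mir540 over Mir665 was -0.08 in replicate 2 and 0.21 in replicate 1, and Mir183 over Mir96 was -0.02 in replicate 2 and 0.22 in replicate 1. For Mir191 and Mir425 the sign was the same in both hearts, as it was for 88 of the 94 pairs. Among the 52 pairs without repeated sequence it was the same for 46. The most unequal were all with Mir19a of the Mir17 cluster, at 699-fold below Mir17, 304-fold below Mir20a and 105-fold below Mir18.

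Between the hearts, the log2 ratio within a pair moved by a median of 0.22 over the 94 pairs and by at most 1.19. The shift of 0.14 at Mir191 and Mir425 was smaller than the shift of 69 of the 94 pairs. By Fisher's exact test with Benjamini-Hochberg adjustment over these and the Mir191 and Mir425 pair, 35.8% of the 95 pairs differed between the hearts, and the pair of Mir191 and Mir425 was among them (adjusted p = 3.13e-07). The pair held 31972 counts in replicate 2 and 21926 in replicate 1.

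**Figure D5:**
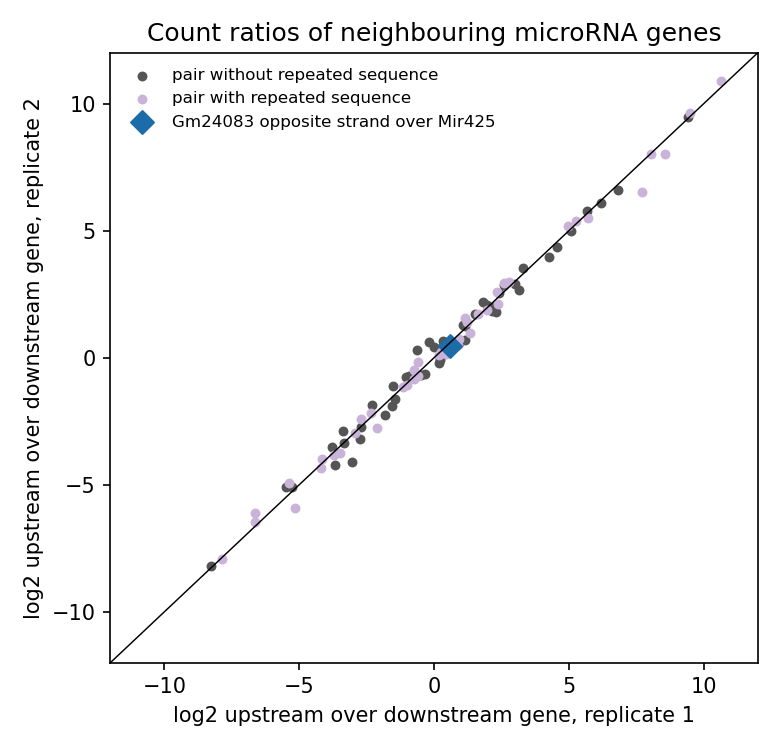
Log2 ratio of upstream over downstream gene in replicate 2 against replicate 1 for 94 neighbouring pairs of microRNA genes, with pairs that have repeated sequence in pale purple, and for the strand of Mir191 over Mir425 as a diamond; the line marks equal ratios. The diamond sits near the centre, at 0.47 in replicate 2 and 0.61 in replicate 1, where the counts of neighbours are nearly equal.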

How the data were processed

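Reads were counted by the authors on build mm10 with GENCODE M4, from 1 alignment file per library, per the description files deposited with the tables. Aligner and counter: not given in the sources used here. The values deposited are raw read counts per gene in 3 columns without a header. In gene rows column 1 is the sum of columns 2 and 3. Column 2 was read as sense and column 3 as antisense, from the values, since no header says so. Left out were 4 rows without a gene: in replicate 2 and replicate 1, 34.6% and 35.9% of reads matched several places, 15.5% and 12.6% were unmapped and 2.28% and 1.93% lay in no gene.

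Names and positions are from GENCODE M21, which matched 1894 of 1973 identifiers. The other 79 held 5 counts in the 2 libraries together. CPM used the both-strand gene total. Log2 ratios used 0.5 added counts. With 1 group of 2 libraries, edgeR's quasi-likelihood test could not be fitted across genes, so exact binomial tests were used. They were tested on simulated data with no spread between hearts, which cannot show how they behave where there is such spread. Genes named were the pair, the 3 nearest features of each, the 3 most abundant and 3 widest of the reference list, the 3 most and least equal pairs without repeated sequence, features next to Gm24083 in rank, and sharers of a seed. The members and lists were chosen with earlier results of these data known.

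Alternatives were other denominators and scalings (edgeR TMM, DESeq2 size factors), count minimums, pseudocount, strand, thinning, a preset spread and leaving out a replicate or repeated sequence. A window of 10 kb, pairs without repeated sequence, a minimum of 10 opposite-strand counts, and single libraries for the neighbouring pairs and for the rank of Gm24083 were chosen after seeing the data. Tools were edgeR 4.0.16 and DESeq2 1.42.0 on R 4.3.3, RNAfold 2.7.2, matplotlib 3.10.9, pandas 2.3.3, SciPy 1.17.1, NumPy 2.4.6 and Python 3.11.15.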

Additional observations from a re-analysis of the deposited data

How the results depend on the processing

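Depth was not the limit for this pair, whose counts were 8689 or more in each library. The number of libraries was. No paired analysis was possible because there is 1 group. Under 10 alternatives the log2 ratio of replicate 2 over replicate 1 ran from 0.33 to 0.37 for Mir425 and from 0.19 to 0.23 for the strand of Mir191. Both stayed past the threshold under 9 of the 10. In those 9 the exact binomial test gave an adjusted p from 6.08e-76 to 3.01e-62 for Mir425. For the strand of Mir191 its adjusted p ran from 7.04e-43 to 5.54e-31. Both lost the call under edgeR's exact test with variation preset to 0.1, at a log2 ratio of 0.37 (adjusted p = 0.782) and 0.23 (adjusted p = 1). That test called 3 features, against 146 by the exact binomial test. The 12 features named as nearest in level or from the reference list lost their calls there too. The edgeR test adds a preset spread between hearts to counting noise, and that spread was not estimated from these libraries.

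With the most abundant gene, Mir126a, left out of the total, the strand of Mir191 had 2386 ± 225 CPM, more than 1 SD above its main value, as the denominator is smaller. Of the 146 calls, 89 were higher in replicate 2 and 57 in replicate 1 with both-strand totals; scaling moved this to 83 and 59 with TMM, 78 and 69 with DESeq2 size factors, and 77 and 70 without Mir126a. Among the reference microRNAs the 12 higher and 1 lower in replicate 2 became 11 and 2 with TMM and 10 and 3 with DESeq2 size factors. Without those of repeated sequence, 6 of 9 passed, all higher in replicate 2. The 1 gene called lower in the main result has repeated sequence. Of all 359 tested features without repeated sequence, 65 were called higher in replicate 2 and 46 in replicate 1. Leaving out a replicate gave 1266 to 1631 CPM for Mir425, 1928 to 2256 CPM for the strand of Mir191, and a ratio of 1.38 to 1.52 between them. The median size of neighbouring ratios, 2.17 on the log2 scale, was 2.45 within 10 kb, 2.03 without repeated sequence, and 2.18 to 2.31 in single libraries. Gm24083 kept rank 3 among opposite-strand features in each library and with a minimum of 10 counts.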
